A study of Mus musculus with 6 samples.

Results

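The genes described here are 9 members of the Toll-like receptor system, taken by gene symbol from the 37315 genes of the abundance table: the receptors Tlr1, Tlr2, Tlr4, Tlr7 and Tlr9, the receptor-like Cd180 with its partner Ly86, the adaptor Myd88 and the chaperone Unc93b1. They were measured by RNA sequencing in 3 clonal lines of immortalised B cells, which the labels name Abl.2 (female), Abl.3 (male) and Abl.4 (female). Every line is a 129S1/SvImJ x CAST/EiJ F1, so the maternal and the paternal allele of a gene come from different strains, and every line was a control, kept in growth medium with 1% DMSO (a solvent) until day 2. Each line is 1 clone with 2 libraries, replicates of library preparation per the labels, so the p-values below measure the spread between libraries of a clone and not between animals or clones of a kind.

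Toll-like receptors are membrane proteins of innate immune cells that bind microbial molecules. Tlr1, Tlr2 and Tlr4 act at the cell surface on lipoproteins and lipopolysaccharide, while Tlr7 and Tlr9 act in endosomes on RNA and DNA. Unc93b1 escorts the endosomal receptors out of the endoplasmic reticulum, and Myd88 couples nearly all members of the family to kinases and NF-kappaB. Cd180 (RP105) resembles Tlr4 outside the cell but has no signalling domain, is found on B cells, and needs the small secreted protein Ly86 (MD-1) to reach the surface.

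Abundance was given in TPM (a transcript level scaled to gene length and to the library's total), which allows genes to be compared with each other. TPM keep no depth, and the depth behind them is unknown. Allelic counts, reads assigned to 1 allele at SNP positions, totalled 18362319 to 26881211 per library, and 8 of the 9 genes were in that table (not Tlr1). The maternal share is the maternal part of a gene's allelic counts. Its 95% Wilson intervals cover only the error of counting, because the libraries carry no molecular identifiers and 1 molecule can give several reads.

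All 12 markers of the B lineage in a list that included Pax5 and Igll1 had a mean of at least 1 TPM, with a summed level of 12598 to 13986 TPM per library. Of 9 macrophage and monocyte markers 3 reached that mean (Lyz2, Cd68 and Itgam), Adgre1 and Cd14 were listed at 0 in every library, and Csf1r did not exceed 0.30 TPM. The summed macrophage list spanned 160.6 to 196.6 TPM in Abl.2, 80.9 to 103 TPM in Abl.3 and 80.8 to 93.0 TPM in Abl.4. Without Lyz2 it spanned 3.00 to 3.81, 6.79 to 7.10 and 9.96 to 10.5 TPM in the same order. Of the other lists, 0 of 6 dendritic cell, 0 of 4 erythroid and 0 of 6 neutrophil markers reached a mean of 1 TPM, and of 8 T cell markers Lat did.

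By genome position (GRCm38, as the abundance table gives it), the surface receptors lie at chr5:64924679-64933563 (Tlr1, ENSMUSG00000044827), chr3:83836272-83841767 (Tlr2, ENSMUSG00000027995) and chr4:66827584-66930284 (Tlr4). The endosomal receptors lie at chrX:167304929-167330558 (Tlr7) and chr9:106222598-106226883 (Tlr9). Cd180 and Ly86 share a chromosome, at chr13:102693558-102739629 and chr13:37345208-37419036. Myd88 lies at chr9:119335934-119341411 and Unc93b1 at chr19:3935186-3949340. All 9 starts equal those of GENCODE release M21.

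The promoters of the 4 receptor and co-receptor genes with a called difference in abundance and an entry in the RefSeq table (GRCm38.p6) are printed so that the genes whose levels or allele shares set the clones apart can be compared. Each run of 300 bases covers 250 bases before and 50 after the start, 5′ to 3′ on the gene's strand, at chr13:37345095-37345394 (Ly86, plus strand), chr13:102693297-102693596 (Cd180, plus strand, the first of its starts), chr3:83841559-83841858 (Tlr2, minus strand) and chr9:106222348-106222647 (Tlr9, plus strand). Of the 9 genes 6 had an entry, and Tlr4, Tlr7 and Unc93b1 are named only. Capitals mark matches, on either strand, to AANNGAAA (the core bound by interferon regulatory factors), GAGGAAG (a PU.1 core) and ATGCAAAT (the octamer of Oct factors).
Ly86: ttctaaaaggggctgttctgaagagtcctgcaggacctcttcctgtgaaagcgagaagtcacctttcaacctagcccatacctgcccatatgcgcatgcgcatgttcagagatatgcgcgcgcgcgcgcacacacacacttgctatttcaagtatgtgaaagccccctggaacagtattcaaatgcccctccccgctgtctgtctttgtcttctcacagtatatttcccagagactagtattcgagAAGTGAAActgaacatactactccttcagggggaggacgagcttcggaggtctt
Cd180: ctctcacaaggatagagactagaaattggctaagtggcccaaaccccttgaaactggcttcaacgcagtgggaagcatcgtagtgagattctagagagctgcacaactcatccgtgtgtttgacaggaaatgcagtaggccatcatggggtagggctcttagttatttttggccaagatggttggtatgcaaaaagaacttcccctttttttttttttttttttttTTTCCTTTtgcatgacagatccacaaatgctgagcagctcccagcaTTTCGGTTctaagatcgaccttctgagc
Tlr2: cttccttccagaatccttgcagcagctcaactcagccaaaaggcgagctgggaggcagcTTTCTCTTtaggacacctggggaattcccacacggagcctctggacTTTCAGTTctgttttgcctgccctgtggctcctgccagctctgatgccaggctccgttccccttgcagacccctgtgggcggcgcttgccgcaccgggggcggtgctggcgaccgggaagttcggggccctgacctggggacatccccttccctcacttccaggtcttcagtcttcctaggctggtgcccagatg
Tlr9: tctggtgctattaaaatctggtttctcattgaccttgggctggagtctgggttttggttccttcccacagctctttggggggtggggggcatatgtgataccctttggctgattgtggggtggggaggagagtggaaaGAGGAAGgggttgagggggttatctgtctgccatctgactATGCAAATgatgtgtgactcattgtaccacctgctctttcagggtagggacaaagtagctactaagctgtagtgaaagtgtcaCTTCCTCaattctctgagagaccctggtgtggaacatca

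AANNGAAA occurred once in the Ly86 window, from base 247, and 2 times each in those of Cd180 (from bases 227 and 273) and Tlr2 (from bases 60 and 106). Of all 32851 promoters of this length 23.9% held it. The Tlr9 window held GAGGAAG from bases 139 and 262 and the octamer from base 179, which 13.6% and 1.74% of all promoters held. In CG dinucleotides the windows ranged from 0 (Tlr9) and 5 (Cd180) to 11 (Tlr2) and 13 (Ly86), around a median of 7 for all promoters. A match describes letters of the reference strain and is not a measured binding site, and the sequences of the parental strains were not used here.

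The order of level differed between lines in the middle of the range. Unc93b1 was the most abundant, at 267 to 456 TPM as line means, followed by Myd88 at 67.5 to 80.6 TPM, and the libraries of these neighbours in the order did not overlap. Cd180, Tlr4 and Tlr2 came next at 4.62 to 22.1 TPM, then Tlr9 at 0.80 to 2.18 TPM. Tlr4 ranked above Cd180 in Abl.2, whereas Cd180 ranked above Tlr4 in Abl.3 and Abl.4. Tlr4 ranked above Tlr2 in Abl.2 and Abl.3, whereas Tlr2, at 15.1 and 15.7 TPM, ranked above Tlr4, at 8.90 and 13.9 TPM, in Abl.4. Ly86 joined the middle range in Abl.4 alone, where its libraries overlapped those of its neighbours Tlr2 and Tlr4. Tlr1 and Tlr7 stayed under 1 TPM in every library.

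**Figure D1:**
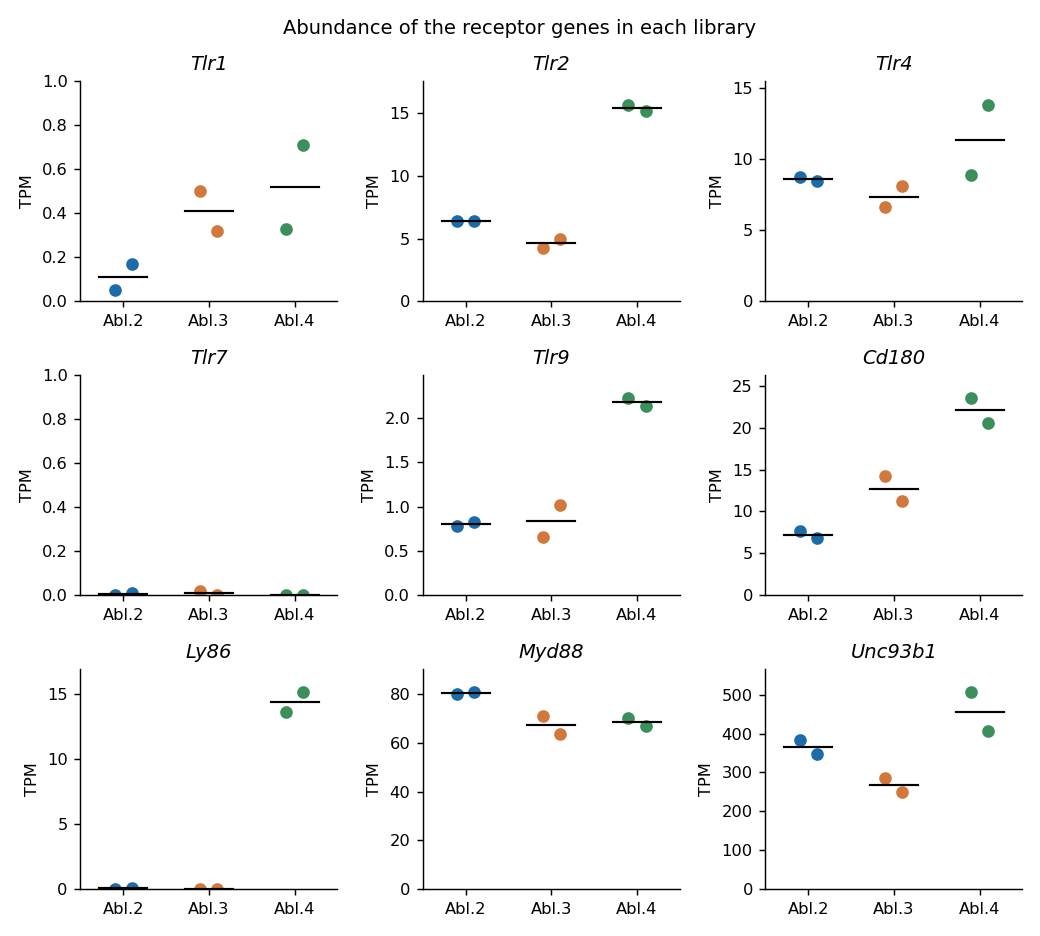
Abundance (TPM, linear axes that start at 0 and differ between panels) of the 9 genes in each library; points are libraries and the horizontal line is the mean of the 2 libraries of a line. Tlr2, Tlr9, Cd180 and Ly86 were highest in both libraries of Abl.4, while Ly86 was at 0 to 0.08 TPM in the other lines.

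Lines were compared pairwise with limma on log2(TPM + 1) over the 11003 genes whose mean reached 1 TPM, and a difference was called at a Benjamini-Hochberg adjusted p below 0.05. Of the 9 genes 7 passed that filter, not Tlr1 or Tlr7. Ly86 and Tlr9 passed through Abl.4 alone, with means of 0.02 and 0.82 TPM over the other lines, so their differences from Abl.4 and the counts and medians that hold them are given as descriptions. The comparisons share lines and are therefore not independent of each other. Differences below are on this log2 scale, on which low genes change less than their TPM do. With TPM from bulk RNA, fewer cells expressing a gene and less RNA per cell cannot be told apart.

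In the comparison of Abl.2 with Abl.3, 2 of the 7 genes were higher in Abl.2 (Tlr2 and Unc93b1) and 1 in Abl.3 (Cd180), against 25.9% and 14.0% of all genes tested. Against Abl.2, 4 of the 7 were higher in Abl.4 (Tlr2, Tlr9, Cd180 and Ly86) and 0 in Abl.2, against 18.4% and 15.0% of all genes (limma, with 6 of the 7 under an unadjusted p of 0.05 in either direction). Against Abl.3, 5 of the 7 were higher in Abl.4 (the same 4 and Unc93b1) and 0 in Abl.3, against 26.8% and 11.3% of all genes. Of the 5 genes that passed the filter without Abl.4, 2 were higher in Abl.4 than in Abl.2 (Tlr2 and Cd180) and 3 higher than in Abl.3 (also Unc93b1). The median difference over the 7 genes was 0.20, -0.82 and -0.76 in these comparisons, first line minus second, beside 0.10, -0.03 and -0.15 over all genes tested.

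**Figure D2:**
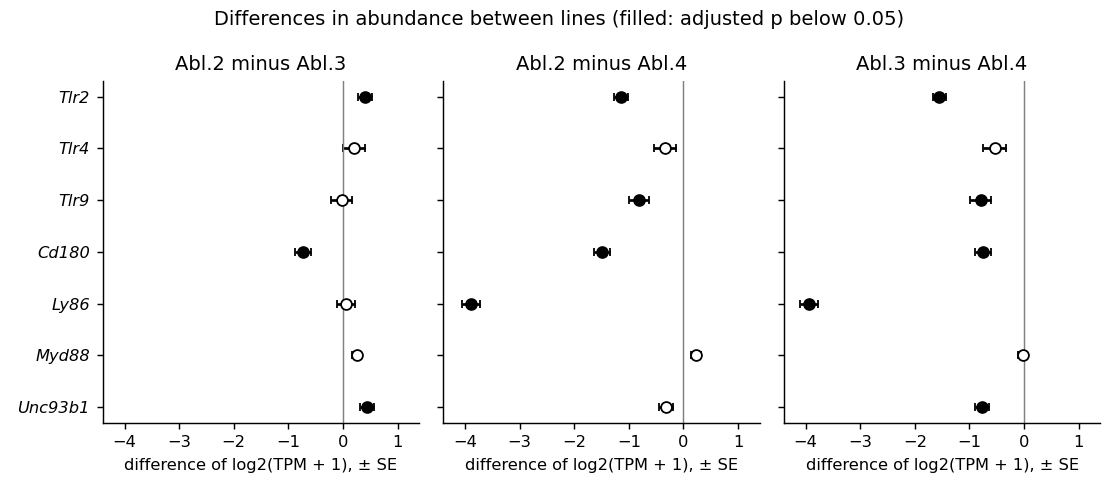
Difference in mean log2(TPM + 1) between lines for the 7 genes tested, first line minus second; points are the limma estimates, bars 1 SE, and filled points have an adjusted p below 0.05. In both comparisons with Abl.4 the points of Tlr2, Tlr9, Cd180 and Ly86 lie left of 0, and Ly86 lies farthest from it.

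Among the surface receptors Tlr2, which senses lipoproteins together with Tlr1 or Tlr6, measured 6.43 and 6.37 TPM in Abl.2, 4.23 and 5 TPM in Abl.3, and 15.67 and 15.13 TPM in Abl.4. Both Abl.4 libraries lay above all others, and the libraries of Abl.2 lay above those of Abl.3 without overlap. Tlr2 was 2.41-fold higher in Abl.4 than in Abl.2 by mean TPM (log2 difference -1.15 ± 0.13 SE, limma adjusted p = 8.98e-04) and 3.34-fold higher than in Abl.3 (-1.55 ± 0.13, adjusted p = 2.90e-04). The smaller difference between Abl.2 and Abl.3 was 0.40 ± 0.13 (adjusted p = 0.0437), and without any single library its limma adjusted p was 0.0555 to 0.184. It was 0.0851 with no filter on low values and 0.207 after quantile normalisation.

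Tlr4, the receptor for lipopolysaccharide, measured 8.72 and 8.47 TPM in Abl.2, 6.64 and 8.12 TPM in Abl.3, and 8.90 and 13.85 TPM in Abl.4. The Abl.4 libraries stood farther apart than the means of any lines. None of its 3 differences was called (limma adjusted p = 0.482 for Abl.2 against Abl.3, 0.255 for Abl.2 against Abl.4 and 0.0841 for Abl.3 against Abl.4). Without Abl.4 replicate 1 both differences from Abl.4 were called, at adjusted p = 0.0437 against Abl.2 and 0.0216 against Abl.3. On summed allelic counts the difference between Abl.2 and Abl.4 was called too (edgeR adjusted p = 0.0353).

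Tlr1, a partner of Tlr2, was at 0.05 and 0.17 TPM in Abl.2, 0.50 and 0.32 TPM in Abl.3, and 0.33 and 0.71 TPM in Abl.4. The libraries of Abl.3 and Abl.4 overlapped. Tlr1 transcripts share 454 stretches of 50 bases with those of the related receptor Tlr6 (13.6% of Tlr1's), so how reads were divided between these genes is uncertain.

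Of the endosomal receptors, Tlr9, which binds DNA rich in unmethylated CG, measured 0.78 and 0.82 TPM in Abl.2, 0.66 and 1.02 TPM in Abl.3, and 2.22 and 2.13 TPM in Abl.4. The libraries of Abl.2 fell within the range of Abl.3, and both libraries of Abl.4 lay above. Tlr9 was higher in Abl.4 than in Abl.2 (log2 difference -0.82 ± 0.19, limma adjusted p = 0.0172) and than in Abl.3 (-0.79 ± 0.19, adjusted p = 0.0175). Since Tlr9 entered the test through its level in Abl.4, these p-values are no independent support for a higher level there. The first had an adjusted p of 0.0792 without Abl.2 replicate 1 and 0.0680 without Abl.2 replicate 2, and the second had 0.0835 without Abl.3 replicate 1. After quantile normalisation neither was called, at adjusted p = 0.0793 and 0.0800.

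Tlr7, an X-linked receptor for single-stranded RNA, was listed at 0 to 0.02 TPM and had 0 allelic counts in all 6 libraries. A count of 0 allows up to 3 counts, which is 0.112 to 0.163 CPM (allelic counts scaled to the library's allelic total) in these libraries.

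Cd180 measured 7.66 and 6.78 TPM in Abl.2, 14.24 and 11.23 TPM in Abl.3, and 23.50 and 20.62 TPM in Abl.4. The lines did not overlap, in ascending order from Abl.2 to Abl.4. The log2 difference was -0.73 ± 0.15 for Abl.2 minus Abl.3 (limma adjusted p = 0.00942), -1.49 ± 0.15 for Abl.2 minus Abl.4 (6.12e-04) and -0.75 ± 0.15 for Abl.3 minus Abl.4 (0.00943). The difference between Abl.2 and Abl.3 had an adjusted p of 0.0658 without Abl.2 replicate 2 and 0.0569 without Abl.3 replicate 1. That between Abl.3 and Abl.4 had 0.0557 without Abl.3 replicate 2, 0.0506 without Abl.4 replicate 1 and 0.0540 after quantile normalisation.

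Ly86, the partner that Cd180 needs, was at 0 and 0.08 TPM in Abl.2 and 0 and 0 TPM in Abl.3, but at 13.65 and 15.14 TPM in Abl.4. Abl.2 and Abl.3 therefore had Cd180 transcript with Ly86 near or at 0. Allelic counts gave the same picture, with 0 in each library of Abl.2 and Abl.3 and 258 and 314 in those of Abl.4. With 3 counts per library in place of 0, Ly86 was at least 117-fold higher in Abl.4 than in Abl.2 and at least 91.0-fold higher than in Abl.3.

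Single genes of the B-lineage and macrophage lists also varied between lines, and their part in these results was not tested. Of the B-lineage list, Cd22 was at 84.7 and 100.03 TPM in Abl.4 and 18.3 to 23.3 TPM elsewhere. Dntt was at 12.4 and 12.5 TPM in Abl.4 and 1.05 to 3.57 TPM elsewhere. Other genes of that list ran differently. Pax5 was at 246 and 207 TPM in Abl.2, 56.18 and 63.95 TPM in Abl.3, and 156 and 165 TPM in Abl.4. Rag1 was highest in Abl.2, at 22.0 and 24.6 TPM, against 4.39 to 12.9 TPM elsewhere. Ms4a1 was at 6.19 and 6.09 TPM in Abl.3 and at most 0.37 TPM elsewhere. Vpreb1 and Igll1 were lowest in Abl.4. Itgam, an integrin chain that is a macrophage marker, was at 6.89 and 6.74 TPM in Abl.4 and 0.35 to 0.97 TPM elsewhere, and so was high in the same line as Ly86 and Tlr2. Cd68, another macrophage marker, was highest in Abl.3, at 5.91 and 6.02 TPM, against 2.44 to 3.48 TPM in the other lines. Lyz2 was highest in Abl.2, at 157.6 and 192.8 TPM, and at 70.8 to 96.5 TPM in the other lines, and the defining markers Adgre1 and Cd14 were at 0 in all 6 libraries.

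Of the shared components, Unc93b1 measured 384.0 and 346 TPM in Abl.2, 285 and 249.7 TPM in Abl.3, and 506 and 406 TPM in Abl.4. The 3 lines did not overlap, with Abl.3 lowest and Abl.4 highest. Unc93b1 was higher in Abl.4 than in Abl.3 (log2 difference -0.76 ± 0.13, limma adjusted p = 0.00529) and higher in Abl.2 than in Abl.3 (0.45 ± 0.13, adjusted p = 0.0326). The second call was lost when any library of Abl.2 or Abl.3 was left out (adjusted p = 0.0637 to 0.170), with no filter on low values (0.0807) and without the trend (0.0577). Between Abl.2 and Abl.4 the difference was -0.31 ± 0.13 (adjusted p = 0.108), and 0.0496 without Abl.4 replicate 2.

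Myd88 measured 80.3 and 80.9 TPM in Abl.2, 71.2 and 63.9 TPM in Abl.3, and 70.2 and 67.1 TPM in Abl.4. Both Abl.2 libraries lay above the rest, and Abl.4 fell within the range of Abl.3. None of the differences was called (limma adjusted p = 0.0543, 0.0822 and 0.840). Myd88 overlaps Acaa1a, at 115 to 148 TPM on the opposite strand, and since strand use in counting is not given in the sources used here, reads from the overlap cannot be told apart. Slc22a14, on the strand of Myd88, was listed at 0, and Mast4, which overlaps Cd180 on the opposite strand, did not exceed 0.40 TPM.

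Allele use was compared next. The edgeR quasi-likelihood test on maternal and paternal counts covered the 8702 genes that had 20 or more allelic counts in all 6 libraries. It included 6 of the 9 genes (Tlr2, Tlr4, Tlr9, Cd180, Myd88 and Unc93b1). Within a line the alleles differed for 5 of 6 genes in Abl.2, 3 of 6 in Abl.3 and 2 of 6 in Abl.4, against 49.1%, 45.1% and 39.9% of all genes tested. The allele ratio itself differed for 3 of 6 genes between Abl.2 and Abl.3 (Tlr2, Tlr4 and Cd180), 2 of 6 between Abl.2 and Abl.4 (Tlr4 and Cd180) and 1 of 6 between Abl.3 and Abl.4 (Tlr2). The background for these counts was 28.4%, 22.3% and 16.5% of all genes.

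**Figure D3:**
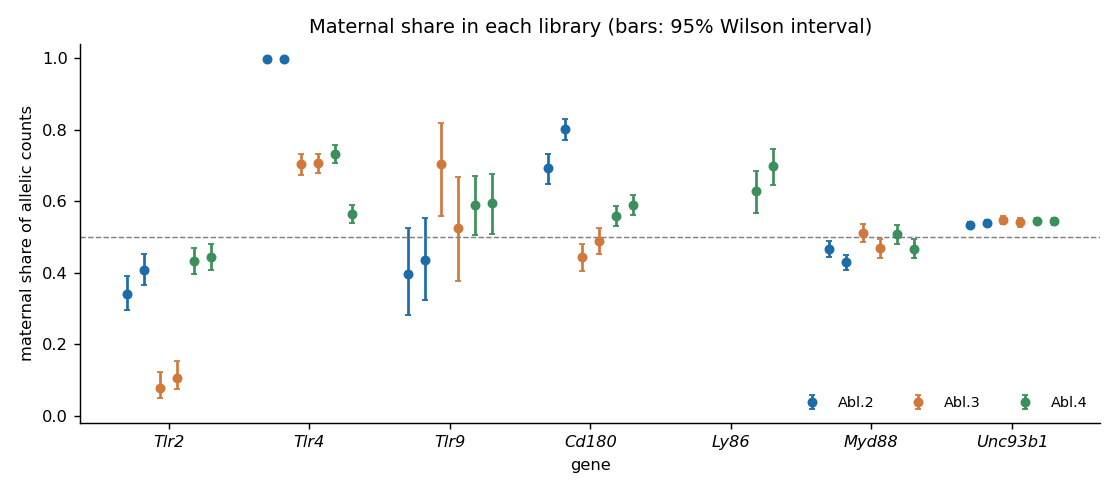
Maternal share of allelic counts (0 to 1) in each library of the 3 lines for the 7 genes with at least 20 counts; bars are 95% Wilson intervals and the dashed line marks 0.5. Tlr2 was lowest in Abl.3, Tlr4 was near 1 in Abl.2 and apart between the Abl.4 libraries, Cd180 was highest in Abl.2, and Myd88 and Unc93b1 stayed near 0.5.

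Tlr2 had a maternal share of 0.340 and 0.409 in Abl.2, 0.0780 and 0.107 in Abl.3, and 0.432 and 0.444 in Abl.4, from 205 to 716 counts per library. The Abl.3 libraries stood apart below all others. The maternal output was 6.55 ± 1.36 CPM (SD, n = 2) in Abl.2, 1.11 ± 0.43 in Abl.3 and 15.4 ± 0.67 in Abl.4, where the paternal output was 10.8 ± 0.018, 10.7 ± 1.67 and 19.8 ± 0.18. So the paternal allele gave nearly the same output in Abl.2 and Abl.3 while the maternal output was lower in Abl.3, and both were higher in Abl.4.

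The Tlr2 allele ratio in Abl.3 differed from that in Abl.2 (log2 ratio difference, Abl.2 minus Abl.3, 2.55 ± 0.30 SE, edgeR adjusted p = 5.27e-05) and from that in Abl.4 (Abl.3 minus Abl.4, -2.92 ± 0.29, adjusted p = 3.66e-05). Between Abl.2 and Abl.4 it was -0.37 ± 0.24 (adjusted p = 0.373). Against equal use, Tlr2 was paternally biased in Abl.3 (log2 maternal over paternal -3.28 ± 0.23, edgeR adjusted p = 1.21e-06) and in Abl.2 (-0.73 ± 0.17, adjusted p = 0.00515, but 0.129 without Abl.2 replicate 1). The authors' deposited table gives 0.09 for Tlr2 in Abl.3 with limits of 0 and 0.26, and limits that include 0.5 in the other lines. In Abl.3 the 20 nearest tested genes had a median share of 0.472 and a lowest of 0.178, above that of Tlr2.

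Cd180 had a maternal share of 0.693 and 0.803 in Abl.2, 0.443 and 0.489 in Abl.3, and 0.558 and 0.590 in Abl.4, from 462 to 1278 counts per library. The lines did not overlap, and the Abl.2 libraries differed by 0.110, with Wilson intervals of 0.649 to 0.733 and 0.771 to 0.831 that do not meet. Maternal output was 17.3 ± 4.5 CPM in Abl.2, 17.0 ± 2.69 in Abl.3 and 35.0 ± 3.82 in Abl.4. Paternal output of Cd180 was 5.64 ± 0.87, 19.4 ± 0.56 and 25.9 ± 0.46 CPM, so that Abl.2 and Abl.3 differed by the paternal allele, and Abl.4 was higher for both.

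The Cd180 allele ratio in Abl.2 differed from that in Abl.3 (1.81 ± 0.26, edgeR adjusted p = 3.01e-04) and from that in Abl.4 (1.18 ± 0.26, adjusted p = 0.00602, but 0.0766 without Abl.2 replicate 2). Between Abl.3 and Abl.4 it was -0.63 ± 0.25 (adjusted p = 0.127). Maternal bias was called in Abl.2 (1.61 ± 0.19, edgeR adjusted p = 4.25e-05), where the authors' deposited table gives 0.76 with limits of 0.65 and 0.85. In Abl.4 the adjusted p was 0.0679, and it was 0.0267 without Abl.2 replicate 1 and 0.0269 without Abl.2 replicate 2, whose removal changes the shared estimate of the spread and not the Abl.4 counts. The 20 nearest tested genes had median shares of 0.563, 0.526 and 0.537 in Abl.2, Abl.3 and Abl.4. In Abl.2 these neighbours spanned 0.160 to 0.898, a range that holds the shares of Cd180 there.

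**Figure D4:**
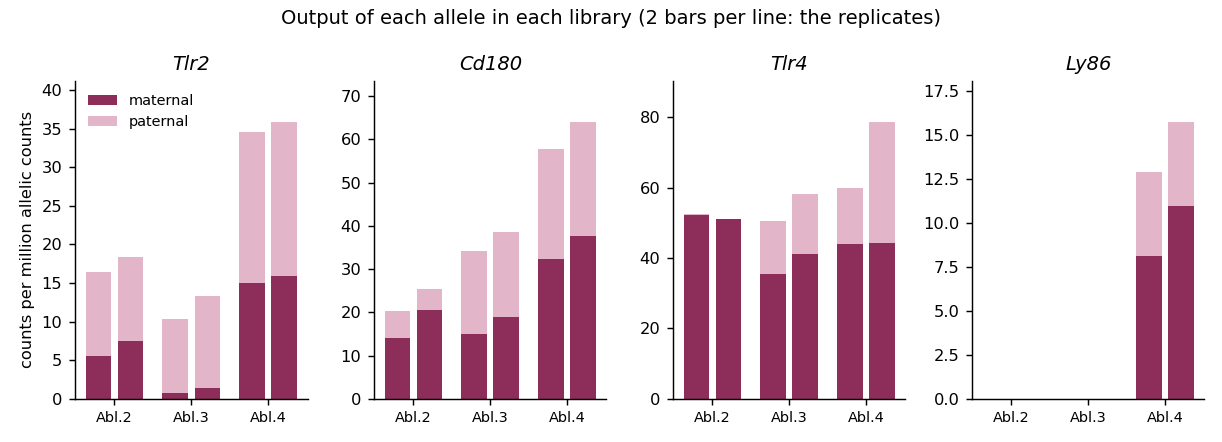
Maternal (dark) and paternal (light) CPM of allelic counts, stacked, in each library for 4 receptor genes; each line has 2 bars, 1 per library, and the axes start at 0 and differ between panels. For Tlr2 the maternal part is small in Abl.3, for Cd180 the paternal part is small in Abl.2, for Tlr4 the paternal part is nearly 0 in Abl.2 and differs between the Abl.4 libraries, and Ly86 has counts in Abl.4 alone.

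Tlr4 was read almost wholly from the maternal allele in Abl.2, with 2 paternal counts of 1190 and 1 of 1375, which are maternal shares of 0.998 (95% Wilson interval 0.994 to 0.9995) and 0.999 (0.996 to 0.9999). In Abl.3 the share was 0.703 and 0.706. In Abl.4 it was 0.733 and 0.565. Both alleles were thus used in Abl.3 and Abl.4, with a maternal excess. The maternal bias was called in every line (edgeR adjusted p = 1.31e-08, 6.25e-04 and 0.00484 in order), the last with 0.0596 without Abl.4 replicate 1.

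The Tlr4 result in Abl.2 was not particular to that gene: the 553 other tested genes of chromosome 4 had a median maternal share of 0.998, and the 20 nearest ones spanned 0.987 to 1. In Abl.3 and Abl.4 the median of chromosome 4 was 0.507 and 0.499, below the share of Tlr4. The 20 nearest genes spanned 0.217 to 0.875 in Abl.3 and 0.229 to 0.942 in Abl.4, ranges that hold the shares of Tlr4. The allele ratio of Tlr4 in Abl.2 differed from that in Abl.3 (edgeR adjusted p = 6.25e-07) and from that in Abl.4 (4.17e-07). Total TPM of Tlr4 showed no called difference between these lines. Its total allelic output was 52.4 and 51.2 CPM in Abl.2, 50.6 and 58.4 CPM in Abl.3, and 59.9 and 78.6 CPM in Abl.4. The maternal output of 51.7 ± 0.86 CPM in Abl.2 lay above the 38.4 ± 4.00 of Abl.3 and the 44.2 ± 0.32 of Abl.4.

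The Abl.4 libraries differed in the paternal allele of Tlr4. Maternal counts were 879 and 888, or 43.9 and 44.4 CPM, whereas paternal counts were 320 and 684, or 16.0 and 34.2 CPM. The Wilson intervals of the shares, 0.707 to 0.757 and 0.540 to 0.589, do not meet. This gap of 0.168 was larger than that of any other of the 3603 autosomal genes with at least 1000 allelic counts in every library, of which Atp9b came next at 0.164. In Abl.2 and Abl.3 the Tlr4 gap was 0.00095 and 0.0027. These gaps were compared after their values were seen. Between Abl.3 and Abl.4 the allele ratio of Tlr4 did not pass the test (0.37 ± 0.29, edgeR adjusted p = 0.488). It was called without Abl.4 replicate 1 (0.88, adjusted p = 0.00492) and changed sign without Abl.4 replicate 2 (-0.20).

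**Figure D5:**
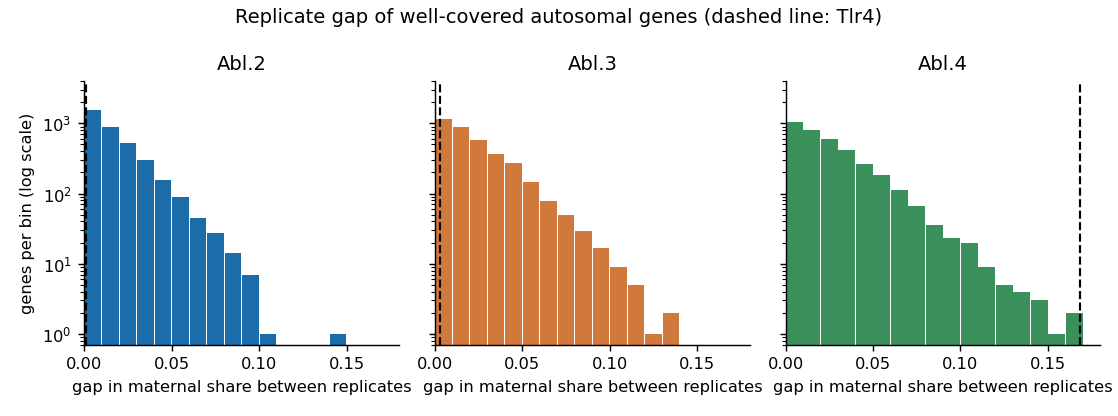
Absolute difference in maternal share between the 2 libraries of a line (x axis, share units) for 3603 well-covered autosomal genes, as genes per bin on a log axis; the dashed line marks Tlr4. The line sits at the left edge in Abl.2 and Abl.3 and at the right end, at 0.168, in Abl.4.

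Ly86 could be read by allele in Abl.4 only, with maternal shares of 0.628 and 0.697 from 258 and 314 counts. Required to have 20 counts in Abl.4 alone, its log2 ratio was 0.98 (edgeR adjusted p = 0.0662). The authors' deposited table gives 0.67 for Ly86 in Abl.4, with limits of 0.45 and 0.85 that include 0.5. Both alleles therefore had counts in Abl.4.

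Tlr9 shares were 0.397 and 0.435 in Abl.2, 0.705 and 0.524 in Abl.3, and 0.590 and 0.594 in Abl.4, from 42 to 134 counts per library. At this depth single-library intervals were wide, for example 0.558 to 0.818 in Abl.3 replicate 1, and no imbalance or difference between lines was detectable for Tlr9 (edgeR adjusted p = 0.191 to 0.913 over its 6 tests).

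Unc93b1 had a maternal share between 0.533 and 0.547 in all 6 libraries, from 6716 to 13301 counts each. The maternal excess was small and called in every line (log2 ratio 0.21, 0.25 and 0.25, each with an SE of 0.04, edgeR adjusted p = 0.00104, 4.11e-04 and 3.72e-04). The ratio did not pass the test between any lines (edgeR adjusted p = 0.614 to 0.999). The 15 nearest tested genes had similar median shares, of 0.533, 0.548 and 0.524 in Abl.2, Abl.3 and Abl.4. Myd88 shares were 0.466 and 0.429 in Abl.2, 0.510 and 0.468 in Abl.3, and 0.507 and 0.467 in Abl.4. For Myd88 a paternal excess was called in Abl.2 alone (-0.30 ± 0.10, edgeR adjusted p = 0.0319), which was lost without Abl.2 replicate 1 (0.0577) or 2 (0.381), and its ratio did not pass the test between lines (adjusted p = 0.297 to 0.975).

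Other genes of the pathway were counted in 4 lists. Of 11 other receptors and ligand-binding co-receptors, Tlr5, Tlr11, Cd14 and Lbp were listed at 0 in every library, and 3 were tested for abundance (Tlr6, Ly96 and Cd36). Of these 3, 1 was higher in Abl.3 than in Abl.2, 2 were higher in Abl.4 than in Abl.2 and 2 higher in Abl.4 than in Abl.3, with 0 in the other direction, against 14.0%, 18.4% and 26.8% of all genes in the direction that had calls. Of the 3, Cd36 passed the filter through Abl.4 alone, with a mean of 0.835 TPM over the other lines. Its differences from Abl.4 and the counts that hold it are therefore descriptions. Tlr3, of the same list, was lowest in Abl.4 and did not pass the filter, so these counts leave it out. It measured 0.99 and 1.56 TPM in Abl.2, 1.11 and 1.22 TPM in Abl.3, and 0.14 and 0.32 TPM in Abl.4. Cd36, a scavenger receptor that hands lipids to Tlr2 and Tlr6, measured 0.20 and 0.15 TPM in Abl.2, 1.36 and 1.63 TPM in Abl.3, and 6.15 and 7.43 TPM in Abl.4. Its lines did not overlap, and it was higher in Abl.3 than in Abl.2 (limma adjusted p = 0.00400). Tlr6 measured 5.65 ± 0.17 TPM in Abl.4 against 2.17 ± 0.22 in Abl.2 and 2.86 ± 0.071 in Abl.3 (limma adjusted p = 0.00212 and 0.00720), in both libraries of Abl.4 above all others. Ly96 (MD-2), which Tlr4 needs to bind lipopolysaccharide, was at 15.0 to 18.3 TPM as line means, and none of its differences in abundance was called. More of its allelic counts were maternal in every line (edgeR, called in each), at shares of 0.703 (Abl.2), 0.751 (Abl.3) and 0.696 (Abl.4).

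Of 12 genes for folding, transport and cleavage of the receptors, 11 were tested. In Abl.2 5 were higher and 3 lower than in Abl.3, where 25.9% and 14.0% of all genes were. Against Abl.4, 2 were higher and 6 lower in Abl.2 (15.0% and 18.4% of all genes), and 0 were higher and 4 lower in Abl.3 (11.3% and 26.8%). Ctsb, a lysosomal protease, was at 85.8 and 84.7 TPM in Abl.2, 78.5 and 70.5 TPM in Abl.3 and 165.8 and 181 TPM in Abl.4, higher in Abl.4 than in Abl.2 (-1.02 ± 0.088, limma adjusted p = 3.37e-04) and Abl.3 (-1.21 ± 0.088, adjusted p = 1.86e-04). Ap3d1, a subunit of the AP-3 sorting complex, was highest in Abl.2, at 81.3 ± 0.057 TPM against 42.8 ± 1.00 in Abl.3 and 52.0 ± 4.55 in Abl.4 (limma adjusted p = 5.49e-04 and 0.00254). Cnpy3, a folding factor for the receptors, was lowest in Abl.2, at 78.4 ± 4.69 TPM against 112.7 ± 2.06 and 121.6 ± 19.98 (limma adjusted p = 0.0157 and 0.00953). The call of Cnpy3 against Abl.3 was lost without any library of Abl.2 or Abl.3 (adjusted p = 0.0525 to 0.0966), and that against Abl.4 without Abl.2 replicate 2 (0.0662).

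Of 18 adaptors and kinases below the receptors, 17 were tested. In Abl.2 5 were higher and 2 lower than in Abl.3, beside 25.9% and 14.0% of all genes. Against Abl.4, 3 were higher and 2 lower in Abl.2 (15.0% and 18.4% of all genes), and 1 was higher and 5 lower in Abl.3 (11.3% and 26.8%). Tirap, the bridging adaptor that Tlr2 and Tlr4 use to reach Myd88, was at 7.29 and 5.68 TPM in Abl.2, 9.69 and 8.17 TPM in Abl.3 and 19.36 and 19.51 TPM in Abl.4. It was higher in Abl.4 than in either other line (-1.46 ± 0.15 and -1.05 ± 0.15, limma adjusted p = 6.76e-04 and 0.00284). Pik3ap1 (BCAP), a B cell adaptor to PI3 kinase, was at 27.7 ± 1.17 TPM in Abl.2, 63.1 ± 1.65 in Abl.3 and 107.3 ± 9.96 in Abl.4, and every pair differed (limma adjusted p = 2.53e-04, 3.44e-05 and 0.00163). Irf7, which drives type I interferon genes after Tlr7 or Tlr9, was at 25.4 and 25.5 TPM in Abl.2 and at 3.15 to 5.22 TPM in the other lines. Irf7 was higher in Abl.2 than in Abl.3 (2.16 ± 0.14, limma adjusted p = 1.09e-04) and Abl.4 (2.52 ± 0.14, adjusted p = 6.09e-05). Irf3, a related factor, was at 82.9 ± 3.61 TPM in Abl.2, 100.6 ± 7.50 in Abl.3 and 62.4 ± 0.099 in Abl.4, lowest in Abl.4 (limma adjusted p = 0.0128 against Abl.2 and 0.00166 against Abl.3). The first of these Irf3 calls had 0.0886 without Abl.2 replicate 1, and the call between Abl.2 and Abl.3 (adjusted p = 0.0428) was lost without any single library (0.0546 to 0.203), with no filter on low values (0.0534) and without the trend (0.0735).

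Of 9 genes listed as inhibitors of the pathway 7 were tested, and their calls ran in 1 direction in each comparison. The list was set by gene name, and the effect of its genes on the pathway was not measured. In Abl.2 6 of the 7 were higher and 0 lower than in Abl.3, beside 25.9% and 14.0% of all genes. Against Abl.4, 4 were higher in Abl.2 and 0 lower (15.0% and 18.4% of all genes), while 0 were higher in Abl.3 and 5 lower (11.3% and 26.8%). Their median log2 difference was 0.64, 0.54 and -0.49 in order, beside 0.10, -0.03 and -0.15 over all genes. Tnfaip3 (A20), a ubiquitin-editing enzyme that ends NF-kappaB signalling, was at 151.6 and 147.4 TPM in Abl.2, 20.6 and 21.6 TPM in Abl.3 and 36.3 and 33.4 TPM in Abl.4. Tnfaip3 was higher in Abl.2 by 2.77 ± 0.084 against Abl.3 (limma adjusted p = 5.87e-06) and by 2.07 ± 0.084 against Abl.4 (1.74e-05). Irak3 (IRAK-M), a kinase-like brake on Irak signalling, was at 27.5 and 28.9 TPM in Abl.2, 7.29 and 7.02 TPM in Abl.3 and 19.8 and 18.3 TPM in Abl.4, and every pair differed (limma adjusted p = 5.05e-05, 0.00811 and 2.59e-04), the second with 0.0654 without Abl.2 replicate 2. Tnfaip3, Irak3, Ap3d1 and Hsp90b1, each highest in Abl.2, lie on chromosome 10, as do Tab2 and Ube2n, which had no called difference. The part of that chromosome in these levels was not tested. In Abl.2, Abl.3 and Abl.4 the maternal shares were 0.317, 0.434 and 0.404 (Tnfaip3), 0.401, 0.0871 and 0.531 (Irak3) and 0.327, 0.497 and 0.519 (Ap3d1). Peli1, an inhibitor-list gene on chromosome 11, was highest in Abl.2 too, at 96.4 TPM against 32.6 and 52.9. Ctsb, Irak3, Irf3, Irf7 and Tirap overlap expressed genes on the opposite strand (Fdft1, Tmbim4, Bcl2l12, Phrf1 and Srpr, at 23.8 to 299.8 TPM), with the same limit as Myd88.

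For the 3 genes that varied most between lines, the genes with the most similar course over the 6 libraries were found by the root mean square difference of centred log2(TPM + 1), among 11002 other genes. Nearest to Ly86 were Tmem159 (0.0909) and Gpr12 (0.125), at 13.1 and 12.9 TPM and 11.7 and 11.8 TPM in Abl.4 and at most 0.06 TPM elsewhere. Nearest to Tlr2 were Lmo2 (0.0605) and Pecam1 (0.0790), and nearest to Cd180 were Itpka (0.0784) and Herpud1 (0.0798). These are descriptions over 3 clones, and none of the 6 genes lies on the chromosome of the gene it resembles.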

How the data were processed

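RNA from live cells, taken after a density gradient, was extracted on beads, treated with DNase and made into SMART-seq v4 libraries without molecular identifiers, per the labels' protocols. TPM in the abundance table are, per the file headers, values per gene and library that the authors obtained with DESeq2. Also per the file headers, the allele table holds whole-number counts per allele, taken at SNPs of the gene. The authors' deposited table of allelic imbalance holds a maternal fraction per line, averaged over replicates, with limits of a level that is not stated. STAR 2.5.4a, SAMtools, GATK and DESeq2 and the builds GRCm38, GRCh37 and mm10 are named in the submitters' processing notes, without roles. Of 35412 genes compared, 98.7% start where GENCODE release M21 has them.

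The line named in each title gave the groups. Abundance was tested with limma 3.58.1 (trend) in R 4.3.3 on log2(TPM + 1) where a gene's mean reached 1 TPM. Alleles were tested with edgeR 4.0.16 (quasi-likelihood, 1 intercept for each library and 1 allele effect for each line) where a gene had 20 or more allelic counts in all 6 libraries. All fits used every gene that passed and all 6 libraries, so the lines share an estimate of the spread. P-values are 2-sided and Benjamini-Hochberg adjusted over all genes tested. Both fits were tested on simulated data. DESeq2 1.42.0, other filters, pseudocounts and scalings, a replicate block and leaving out each library were tried as alternatives. The 9 genes, the gene lists and the tests were chosen with earlier results of these data known. All 9 genes were named, and of each list the gene with the largest called rise or fall in any pair and those at 0 throughout. Tlr6 and Ly96 were added as partners of Tlr2 and Tlr4, and Tlr3 as a receptor lowest in Abl.4, after their values were seen. Hsp90b1, Tab2, Ube2n and Peli1 were also named after that, for the chromosomes they lie on. Neighbours are the 10 nearest tested genes on each side, or fewer where the chromosome held fewer.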

Additional observations from a re-analysis of the deposited data

Results flagged for a closer look

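The tests of the allele ratio between lines singled out 6 results, on 3 of the 6 genes tested. For Tlr2 the maternal share was 0.282 higher in Abl.2 than in Abl.3, and the difference of Abl.3 minus Abl.4 was -0.346. For Cd180 the share was 0.282 higher in Abl.2 than in Abl.3 and 0.174 higher in Abl.2 than in Abl.4. For Tlr4 it was 0.294 higher in Abl.2 than in Abl.3 and 0.350 higher in Abl.2 than in Abl.4. Each of these ratios differed by the edgeR test of the difference itself, at the adjusted p-values given above. The Cd180 difference between Abl.2 and Abl.4 was lost without Abl.2 replicate 2. For Tlr4 the median of chromosome 4 was 0.998 in Abl.2 as well.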

How the results depend on the processing

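Of 693 values of single members under the alternatives, 636 kept their direction and their side of the threshold, 29 lost a call, 12 gained one and 16 changed sign. Members called for abundance between Abl.2 and Abl.3 numbered 3, or 1 with no filter on low values, and 0 to 2 when 1 library was left out. The count was 0 without Abl.2 replicate 2 (limma, 2 under an unadjusted p of 0.05) and without Abl.3 replicate 1 (3 under it). With a filter of 5 TPM, which removes Ly86 and Tlr9, the counts against Abl.4 fell to 2 (Abl.2) and 3 (Abl.3), and quantile normalisation gave 3 for Abl.3 against Abl.4. Leaving out 1 library gave 3 to 5 and 4 to 5 members for abundance against Abl.4. It gave 3 to 5, 3 and 1 to 3 imbalanced members in Abl.2, Abl.3 and Abl.4, and 3, 1 to 2 and 1 to 2 differing in allele ratio. An arm left with 1 library is assumed to vary like the other lines. 

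Libraries share only a replicate number, with 2 pairs per comparison: deviations of same-numbered libraries correlated at 0.104 to 0.187 for abundance and -0.056 to 0.015 for the share, the labels name no shared batch, and the number is one of library preparation. With the number as a replicate block, called members for abundance numbered 4, 6 and 6, where the fit without it gave 3, 4 and 5. Over all genes the share called was then 47.4%, 41.9% and 47.1%, against 39.8%, 33.5% and 38.1% without it. The block added Myd88 for Abl.2 against Abl.3 (limma adjusted p = 0.0286) and Abl.4 (0.0434), Unc93b1 for Abl.2 against Abl.4 (0.0118) and Tlr4 for Abl.3 against Abl.4 (0.0468). It also added the Cd180 imbalance in Abl.4 (edgeR adjusted p = 0.0405). Imbalanced members numbered 5, 3 and 3, and those differing in allele ratio 3, 2 and 1. Signs that changed all belonged to differences that were not called. For abundance, summed allelic counts gave -0.088 (Tlr4) and 0.17 (Tlr9) for Abl.2 minus Abl.3, and 0.088 (Myd88) and 0.085 (Cnpy3) for Abl.3 minus Abl.4. Quantile normalisation gave 0.0020 (Tlr9, Abl.2 minus Abl.3) and 0.091 (Myd88, Abl.3 minus Abl.4). Leaving out 1 library gave -0.17 to 0.12 for Tlr9 (Abl.2 minus Abl.3), and -0.10 to 0.053 for Myd88 and -0.27 to 0.068 for Cnpy3 (Abl.3 minus Abl.4). It gave a Myd88 imbalance of -0.19 to 0.060 in Abl.3 and -0.19 to 0.040 in Abl.4. Allele ratio differences for Abl.3 minus Abl.4 were then -0.20 to 0.88 (Tlr4), -0.40 to 0.71 (Tlr9), -0.11 to 0.13 (Myd88) and -0.018 to 0.019 (Unc93b1). The cause was not tested. Coverage limits Tlr9, with 42 to 134 allelic counts per library.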

Other observations

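Among pathway genes outside the 9 members, Irak1 is an X-linked kinase recruited by Myd88. In the female lines Abl.2 and Abl.4 it was read from the paternal allele (maternal shares 0.00146 and 0.000644). The share of 0.999 in Abl.3 was fixed by sex, since a male line has only the maternal X, and it shows no choice of allele. The medians over 222 tested genes of the X chromosome were 0.00115, 0.999 and 0.000653 in Abl.2, Abl.3 and Abl.4. The share of Irak3 was 0.0871 ± 0.025 (SD, n = 2) in Abl.3, against 0.401 ± 0.023 in Abl.2 and 0.531 ± 0.019 in Abl.4, so that both Irak3 and Tlr2 had their lowest TPM and their lowest maternal share in Abl.3. Cd36 had a share of 0.316 ± 0.045 in Abl.3 and 0.812 ± 0.0072 in Abl.4.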
